A study of Mus musculus with 9 samples.

Results

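The D-type cyclins are 3 closely related proteins, encoded in the mouse by Ccnd1, Ccnd2 and Ccnd3. The list described here holds these genes, their partner kinases Cdk4 and Cdk6, and the inhibitors Cdkn1a (p21), Cdkn1b (p27) and Cdkn1c (p57). These 8 genes, of 47729 in the deposited tables, were chosen by family around Ccnd2, and Ccnd2 was chosen because its level fell after TrkB deletion, more so without stereotypy. Its contrasts are therefore given as a description, with no test. The other 7 genes were tested in the fit over all genes, although their selection was made with earlier results of these data known.

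A D-type cyclin binds CDK4 or CDK6, and the active complex phosphorylates the retinoblastoma protein, which then releases E2F transcription factors and lets a dividing cell enter S phase. The p21, p27 and p57 proteins bind cyclin and CDK complexes, block CDK2 complexes and also take part in the assembly of cyclin D with CDK4. Medium spiny neurons are postmitotic, and D-type cyclins and p27 are nonetheless found in mature neurons. TrkB, encoded by Ntrk2, is the receptor for brain-derived neurotrophic factor, and in dividing cells growth factor receptors raise cyclin D through the MAP kinase and PI3 kinase pathways.

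The tissue was dorsal striatum, taken on postnatal day 28 from C57BL/6 mice. All mice carried D1-Cre, a Cre recombinase driven by the D1 dopamine receptor gene, and RiboTag (RT), a hemagglutinin-tagged ribosomal protein that Cre switches on. Polyribosomes were precipitated with an antibody to the tag, which enriches RNA of D1 medium spiny neurons (MSNs). The control group had the genotype D1-Cre-RT with no floxed TrkB, and the other groups were D1-Cre-flTrkB-RT mice, which lose TrkB in cells with Cre, either with stereotypy (repetitive behavior) or without it. Each of the 3 groups had 3 libraries, described only as biological triplicates, so p-values measure the spread between these libraries. The sources used here do not say whether a library pooled animals. In such precipitates fewer cells of a type and less RNA per cell cannot be told apart.

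Levels are in CPM, the reads of a gene scaled by the library total, and libraries held 27103152 to 40578512 reads. The lowest level that 0 reads can bound (3 reads in a library) was 0.0739 to 0.111 CPM, a limit of counting error alone. Ntrk2 stood at 319, 385 and 487 CPM in the controls, at 34.3, 43.9 and 40.7 CPM with stereotypy and at 23.4, 14.1 and 19.2 CPM without it, so each deleted library had lost most of it. Drd1, which marks D1 MSNs, was abundant in every library (515 to 955 CPM). Control library 3 and no stereotypy library 3 stood apart in their groups, with the highest summed levels of 6 cortical excitatory markers (844 and 1413 CPM), 5 D2 MSN markers (1433 and 1050 CPM) and 8 interneuron markers (492 and 502 CPM). In the controls the sums otherwise began at 269, 443 and 224 CPM, and with stereotypy they ran from 155 to 279, 259 to 424 and 221 to 399 CPM. Of 8 microglial markers the sum was 35.3 to 42.5 CPM with stereotypy, above the controls (15.2 to 30.1 CPM) and the group without stereotypy (20.3 to 28.02 CPM). The sum of 10 astrocyte markers was also higher with stereotypy (640 to 667 CPM) than in controls (451 to 559 CPM) and without stereotypy (450 to 563 CPM). Slc4a4 and Slc1a2 made up most of this sum, and the groups overlapped for Slc1a2. Over the 10 markers, the median log2 difference from control (defined below) was 0.77 with stereotypy and 0.39 without it. That of 9 oligodendrocyte markers was 590 to 1231, 1210 to 2166 and 782 to 1774 CPM in control, stereotypy and no stereotypy.

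Of the 8 genes, 7 passed the filter of at least 1 CPM in at least 3 libraries, and the test covered 13695 genes in all. Changes are differences in mean log2(CPM + 1) from limma, a linear model with a shared variance trend, with p-values adjusted by the Benjamini-Hochberg method over all these genes and a threshold of 0.05. Leaving Ccnd2 aside, 6 genes were tested. Stereotypy against control called 0 of the 6, where 5.10% of all genes tested were called, with Ccnd1 under an unadjusted 0.05. Cdkn1c was under it too, but it passed the filter only through the deleted groups and so had to lie above control. No stereotypy against control called 1 of the 6 (Cdkn1a, higher), beside 6.77% of all genes. Stereotypy against no stereotypy called 0 of the 6, beside 10.2% of all genes, with Cdkn1a and Cdkn1b under an unadjusted 0.05. Both TrkB-deleted groups together against control called 2 of the 6 (Ccnd1 lower, Cdkn1a higher), beside 5.72% of all genes. Ccnd2 was chosen on these contrasts, so nothing is read from these shares. For the 2 contrasts with 0 calls, edgeR on the recovered reads also called 0, beside 4.70% and 9.75% of all genes. DESeq2 called 2 (Ccnd1 and Cdkn1c, stereotypy against control) and 1 (Cdkn1b, stereotypy against no stereotypy). It called 11.1% and 17.1% of all genes in these contrasts, so nothing is read from its counts either.

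**Figure D1:**
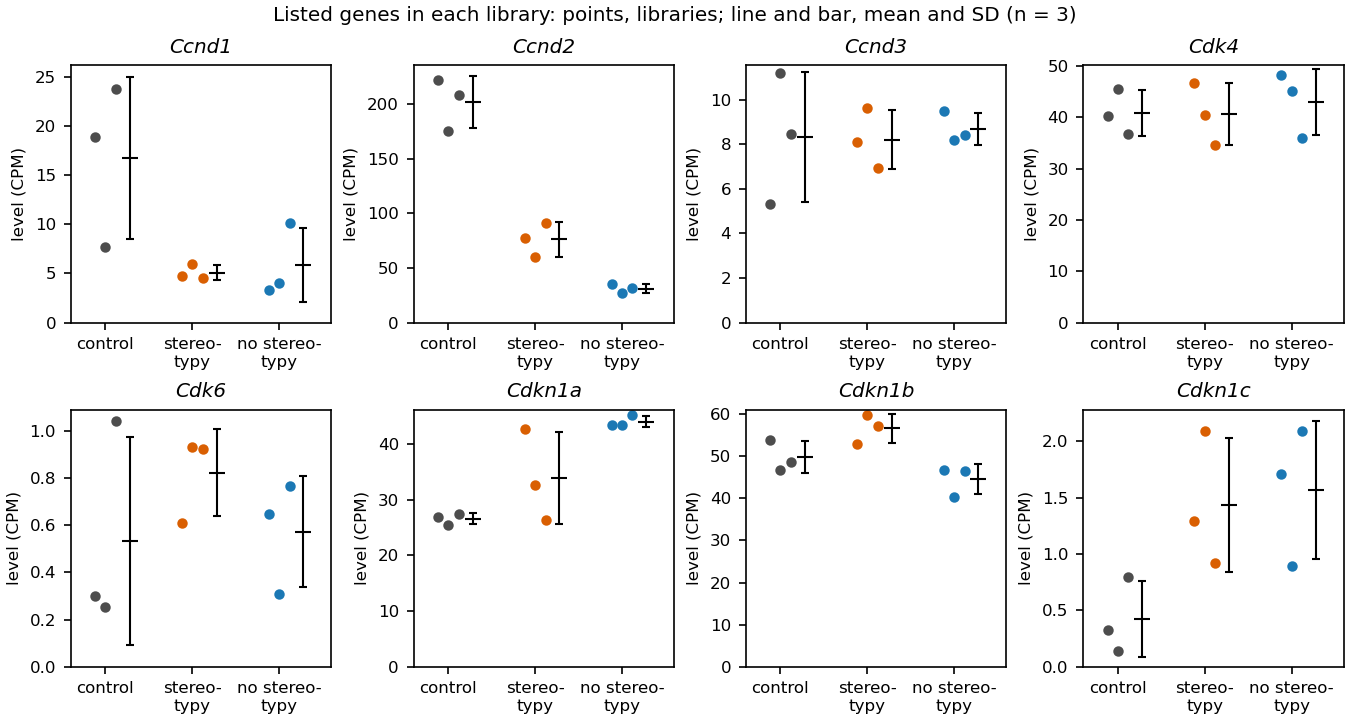
Level in CPM (linear axes from 0) of the 8 genes in each library, by group, with points for libraries and a line and bar for the mean and SD of 3 libraries. Ccnd2 falls in 2 steps that do not overlap, Cdkn1a is high in the 3 libraries without stereotypy, and Ccnd3 and Cdk4 overlap across the groups.

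Among the cyclins, Ccnd2 was the most abundant in each control library. Its level was 222, 175 and 208 CPM in the controls, 77.6, 59.6 and 91.5 CPM with stereotypy and 34.9, 26.9 and 31.3 CPM without stereotypy. The 3 groups did not overlap, and the group without stereotypy was lowest. The group means were 37.8% of control with stereotypy and 15.4% of control without it. On the log2 scale the difference from control was -1.41 (SE 0.16) with stereotypy and -2.66 (SE 0.16) without it, and stereotypy stood 1.26 (SE 0.16) above no stereotypy. Across the alternative settings these differences ranged from -1.57 to -1.24, from -2.76 to -2.55 and from 1.12 to 1.42, so no direction changed. The group means of Ntrk2 stood in the same order, at 9.98% and 4.76% of control.

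Ccnd1, the cyclin most often tied to growth factor signals, was lower in the deleted groups but varied widely among controls. The control libraries held 18.9, 7.67 and 23.8 CPM, the stereotypy libraries 4.73, 5.98 and 4.54 CPM, and the libraries without stereotypy 3.31, 4.06 and 10.2 CPM. Every stereotypy library was below every control, whereas no stereotypy library 3 was above control library 2. With both deleted groups pooled, Ccnd1 fell by 1.40 (log2, SE 0.35, adjusted p = 0.0425, limma). This call was lost in 9 of 21 alternative settings (adjusted p 0.000171 to 0.146). Among them were leaving out control library 1 (0.146), control library 3 (0.124), any 1 stereotypy library (0.0756 to 0.0861), and no stereotypy library 1 or 2 (0.0845 and 0.0802). Taken singly, the differences from control were -1.42 (SE 0.40, adjusted p = 0.0657) with stereotypy and -1.38 (SE 0.40, adjusted p = 0.0675) without it, neither past the threshold in limma. The difference with stereotypy passed in DESeq2 (-1.78, adjusted p = 0.000917), with array weights (0.0199) and without control library 2 (0.0207) or no stereotypy library 3 (0.0355). Over its alternatives adjusted p ran from 0.000917 to 0.207. The difference without stereotypy passed in DESeq2 (-1.555, adjusted p = 0.00379) and, in limma, with array weights (0.0034). It also passed with the glial and vascular marker level as a covariate (0.0365), and without control library 2 (0.0141) or no stereotypy library 3 (0.022). Between the deleted groups the difference was -0.05 (95% interval -0.93 to 0.84, adjusted p = 0.952).

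Cortical markers moved with Ccnd1 in part. In the controls and in the group without stereotypy, library 3 had both the highest Ccnd1 level and the highest cortical sum. With stereotypy, Ccnd1 was highest in library 2 and the cortical sum in library 1. Without both of these libraries 3, Ccnd1 was lower without stereotypy than in controls by a log2 difference of -1.49 (adjusted p = 0.0292, limma). With the mean level of the D2 MSN, cortical and interneuron markers as a covariate, it was lower by a log2 difference of -1.74 (adjusted p = 0.00253). The alternatives to this contrast gave adjusted p from 0.00253 to 0.237. The same covariate turned the difference between the deleted groups to 0.99 (adjusted p = 0.110). Both settings were chosen after seeing the data.

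Reads could also be shared with LTO1, a gene on the opposite strand of chromosome 7 that overlaps 23.4% of the exon bases of Ccnd1, since the use of strand is not given in the sources used here. LTO1 itself stood at 13.6 to 17.9 CPM in the 9 libraries, and its groups overlapped. Its lowest value, like the lowest Ccnd1 value of the controls, was in control library 2.

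**Figure D2:**
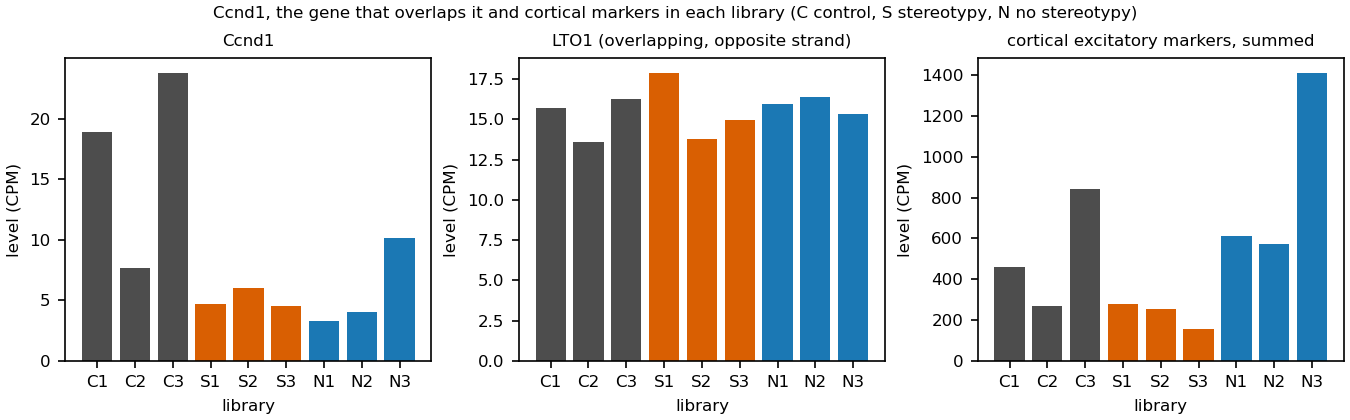
Level in CPM (linear axes from 0) of Ccnd1, of LTO1 and of 6 cortical excitatory markers summed, with a bar for each library (C control, S stereotypy, N no stereotypy). Ccnd1 is highest in C3 and C1 and, without stereotypy, in N3; LTO1 stays between 13.6 and 17.9 CPM, and the cortical sum peaks in N3 at 1413 CPM.

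Ccnd3, a broadly expressed D-type cyclin, had nearly the same mean in the 3 groups. It stood at 5.34, 11.2 and 8.46 CPM in the controls, 8.09, 9.61 and 6.94 CPM with stereotypy and 9.51, 8.18 and 8.40 CPM without it. All 3 groups overlapped. The log2 difference from control was 0.02 (95% interval -0.46 to 0.50) with stereotypy and 0.10 (95% interval -0.37 to 0.58) without it, and changes within these intervals were not detectable here. The sign of the first turned under median-of-ratios rescaling (-0.03).

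The makeup of the D-type cyclin RNA per exon length is given as a description. Levels per kilobase of exon (CPM per kb) allow the 3 genes to be added. The length is that of all annotated exons of a gene merged, not of the transcripts present. Shares and ratios between genes here and below therefore depend on the annotation. Their sum was 28.2, 21.5 and 28.1 CPM per kb in the controls, 10.2, 8.69 and 11.5 with stereotypy and 5.49, 4.65 and 6.44 without stereotypy. Ccnd2 chose the list and dominates this sum. The sum and the shares of it therefore largely restate the fall of Ccnd2 and are a description only. Ccnd2 made up 82.9% ± 4.01 (SD, n = 3) of it in controls, 79.5% ± 6.10 with stereotypy and 60.2% ± 8.01 without it. The Ccnd3 share was 3.83% ± 1.91, 9.52% ± 2.88 and 18.2% ± 2.91 in the same order, with the Ccnd3 level itself near 0.95, 0.94 and 0.99 CPM per kb. In no stereotypy library 3, Ccnd1 supplied 33.6% of the sum, against 12.8% and 18.5% in libraries 1 and 2.

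**Figure D3:**
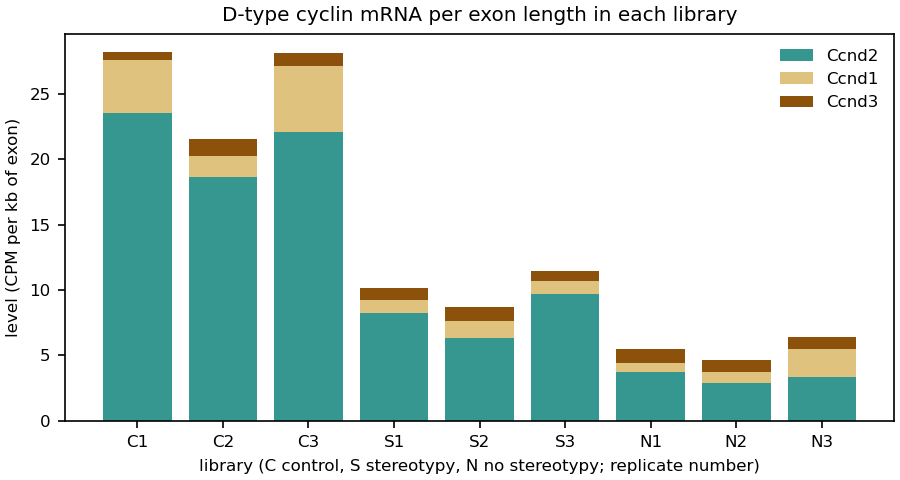
Stacked level of Ccnd2, Ccnd1 and Ccnd3 in CPM per kb of exon (linear axis from 0), with a bar for each library (C control, S stereotypy, N no stereotypy). The summed level is 21.5 to 28.2 in controls, 8.69 to 11.5 with stereotypy and 4.65 to 6.44 without it, while the Ccnd3 segment stays of similar height.

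Of the partner kinases, Cdk4 was the more abundant. Cdk4 was at 40.3, 45.5 and 36.8 CPM in the controls, 46.7, 40.4 and 34.7 CPM with stereotypy and 48.2, 45.0 and 35.9 CPM without it. The groups overlapped fully, with log2 differences from control of -0.01 (95% interval -0.33 to 0.30) and 0.07 (95% interval -0.25 to 0.38). Tspan31, on the opposite strand, overlaps 19.7% of Cdk4 exon bases and was at 42.9 to 56.2 CPM.

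Cdk6 did not pass the filter. It had 9 to 34 reads in the controls, 17 to 29 with stereotypy and 11 to 31 without it, which is 0.255 to 1.04 CPM, and the groups overlapped. Cdk6 was therefore not tested, and small changes in it could not be seen at these counts. Per kilobase, the summed D-type cyclin level was 2.10 ± 0.50 (SD, n = 3) times that of Cdk4 in controls, 0.827 ± 0.215 times with stereotypy and 0.430 ± 0.134 times without it. As the Cdk4 groups overlapped, this ratio largely restates the fall of Ccnd2 that chose the list, and it is a description only.

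The Cip/Kip inhibitors Cdkn1a, Cdkn1b and Cdkn1c did not share a pattern. Cdkn1a, a target gene of p53 that is also induced by many other stress and growth signals, was at 26.9, 25.5 and 27.4 CPM in the controls. It was at 42.7, 32.7 and 26.3 CPM with stereotypy and at 43.5, 43.5 and 45.3 CPM without stereotypy. The libraries without stereotypy lay close together and above all others, while the stereotypy libraries spread from the control level up to nearly that of the other deleted group.

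Without stereotypy Cdkn1a rose against control by 0.71 (log2, SE 0.15, adjusted p = 0.0173, limma), to 166% of the control mean. Leaving out control library 1, or no stereotypy library 1 or 2, gave 0.72 in each case and ended the call (adjusted p = 0.0549, 0.0666 and 0.0568), as did leaving out both libraries 3 (0.71, adjusted p = 0.0556). Over all alternatives adjusted p ran from 0.000264 to 0.0666. The difference with stereotypy was 0.31 (SE 0.15, adjusted p = 0.223), and the stereotypy group stood -0.40 (95% interval -0.72 to -0.07, adjusted p = 0.103) from the group without stereotypy, neither past the threshold in limma. Without stereotypy library 1, that last difference was -0.57 (adjusted p = 0.0387). For both deleted groups together the rise was 0.51 (SE 0.13, adjusted p = 0.0427), and 10 of 21 alternatives ended this call (adjusted p 0.00556 to 0.500). They included leaving out any 1 control, stereotypy library 2 or any 1 library without stereotypy (0.0653 to 0.109), and the glial and vascular covariate (0.500).

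Cdkn1b, the Cip/Kip inhibitor with the highest level in the controls, was called by limma in no contrast. It stood at 54.0, 46.7 and 48.7 CPM in the controls, 52.99, 59.8 and 57.2 CPM with stereotypy and 46.7, 40.4 and 46.4 CPM without it. The lowest stereotypy library was above the highest library without stereotypy, and both groups overlapped the controls. Stereotypy against no stereotypy gave a log2 difference of 0.34 (SE 0.10, adjusted p = 0.0528, limma), just short of the threshold. It passed in DESeq2 (0.33, adjusted p = 0.0276), with array weights (0.00655), at a mean of at least 5 CPM (0.0466), with only the groups compared (0.0430) and without control library 2 (0.0409). The differences from control were 0.18 (adjusted p = 0.286) and -0.16 (adjusted p = 0.389).

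Per kilobase, the ratio of Cdkn1b to Cdkn1a set these genes side by side. It was 1.57, 1.43 and 1.39 in the controls and 0.969, 1.43 and 1.70 with stereotypy. It was 0.840, 0.725 and 0.800 without stereotypy, so per kilobase Cdkn1a exceeded Cdkn1b in those 3 libraries. This order rests on the annotated exon lengths. In CPM, Cdkn1b was above Cdkn1a in no stereotypy libraries 1 and 3 (46.7 against 43.5 and 46.4 against 45.3) and below it in library 2 (40.4 against 43.5). The sum over Cdkn1a, Cdkn1b and Cdkn1c was 18.6 ± 1.06 CPM per kb (SD, n = 3) in controls, 22.7 ± 2.03 with stereotypy and 23.0 ± 1.24 without it, and each deleted library was above each control.

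Promoter windows of these inhibitors are shown because Cdkn1a and Cdkn1b differed in pattern. They are the 250 bases before a RefSeq start (GRCm38.p6), 5′ to 3′ on the plus strand, and 5 of the 8 genes had a window in the RefSeq table (Ccnd3, Cdk4, Cdk6, Cdkn1a and Cdkn1b). Capitals mark, on either strand, the p53 half-site core ACATGTC in the first window and the GC box GGGCGG in the others.
Cdkn1a, upstream start, chr17:29090729-29090978: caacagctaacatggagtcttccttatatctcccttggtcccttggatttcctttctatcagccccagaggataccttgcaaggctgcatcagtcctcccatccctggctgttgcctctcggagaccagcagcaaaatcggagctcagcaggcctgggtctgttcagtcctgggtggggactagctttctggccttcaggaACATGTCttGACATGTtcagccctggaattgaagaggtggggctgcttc
Cdkn1a, downstream start, chr17:29093519-29093768: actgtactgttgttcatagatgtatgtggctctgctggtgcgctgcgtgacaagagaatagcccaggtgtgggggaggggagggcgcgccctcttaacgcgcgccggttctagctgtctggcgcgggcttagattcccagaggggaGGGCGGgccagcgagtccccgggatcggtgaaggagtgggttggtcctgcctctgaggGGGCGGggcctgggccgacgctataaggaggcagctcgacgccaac
Cdkn1b, chr6:134920151-134920400: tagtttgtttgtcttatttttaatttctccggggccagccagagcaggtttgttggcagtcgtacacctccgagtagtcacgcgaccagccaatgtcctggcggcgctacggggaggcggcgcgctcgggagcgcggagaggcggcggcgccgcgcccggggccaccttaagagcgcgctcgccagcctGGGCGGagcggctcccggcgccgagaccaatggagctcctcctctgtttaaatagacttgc

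The upstream Cdkn1a window held 2 matches to ACATGTC, on opposite strands and separated by a pair of bases, a motif chosen after the sequence was seen. At least 1 match occurred in 1.62% of 32851 RefSeq promoter windows of the same length. The downstream Cdkn1a window held 2 GC boxes and the Cdkn1b window 1, a motif found in 32.7% of windows. No match to the cAMP response element TGACGTCA (1.55% of windows), the AP-1 site TGANTCA (6.75%), the EGR site GCGNGGGCG (4.7%) or the ETS site CCGGAAGT (2.88%) lay in any window of the 5 genes, and the TATA box TATAAA (12.4% of windows) occurred once, in that of Cdk6. These are matches of letters only, and binding was not measured.

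Cdkn1c, an imprinted gene whose product is best known from cells that leave the cycle during development, was near the limit of detection. Its libraries held 12, 5 and 26 reads in the controls, 36, 65 and 25 with stereotypy and 66, 32 and 85 without it. In CPM these were 0.328, 0.142 and 0.797, then 1.29, 2.09 and 0.922, then 1.71, 0.896 and 2.10. Each deleted library was above each control. Cdkn1c passed the filter only through the deleted groups, since every control was under 1 CPM, and none of its differences passed the threshold in limma. They were 0.77 (SE 0.26, adjusted p = 0.101) with stereotypy, 0.85 (SE 0.26, adjusted p = 0.0755) without it and 0.81 (SE 0.22, adjusted p = 0.0580) for both against control. In DESeq2 they were 1.72 (adjusted p = 0.0478), 1.87 (0.0255) and 1.79 (0.0142), all past the threshold. With a pseudocount of 0.25 the difference for both was 1.44 (adjusted p = 0.0472, limma). With the covariate for other neurons it was 0.89 (0.00899), and with stereotypy 1.13 (0.0210).

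The mean log2 level of the glial and vascular markers was 2.84, 2.67 and 3.01 in the controls, 3.49, 3.64 and 3.25 with stereotypy and 3.17, 2.67 and 3.16 without it. Within the controls and within the stereotypy group the libraries had the same order as by Cdkn1c, and no stereotypy library 2 was the lowest of its group in both. With this level as a covariate, Cdkn1c stood with stereotypy at -0.15 from control (adjusted p = 0.915, limma). Its difference from control without stereotypy kept its direction in every alternative setting. Every stereotypy library lay above every control in this marker level, so the covariate and the group cannot be told apart. With it, calls over all genes with stereotypy fell from 699 to 11. The part of these cells in the Cdkn1c values was not tested.

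**Figure D4:**
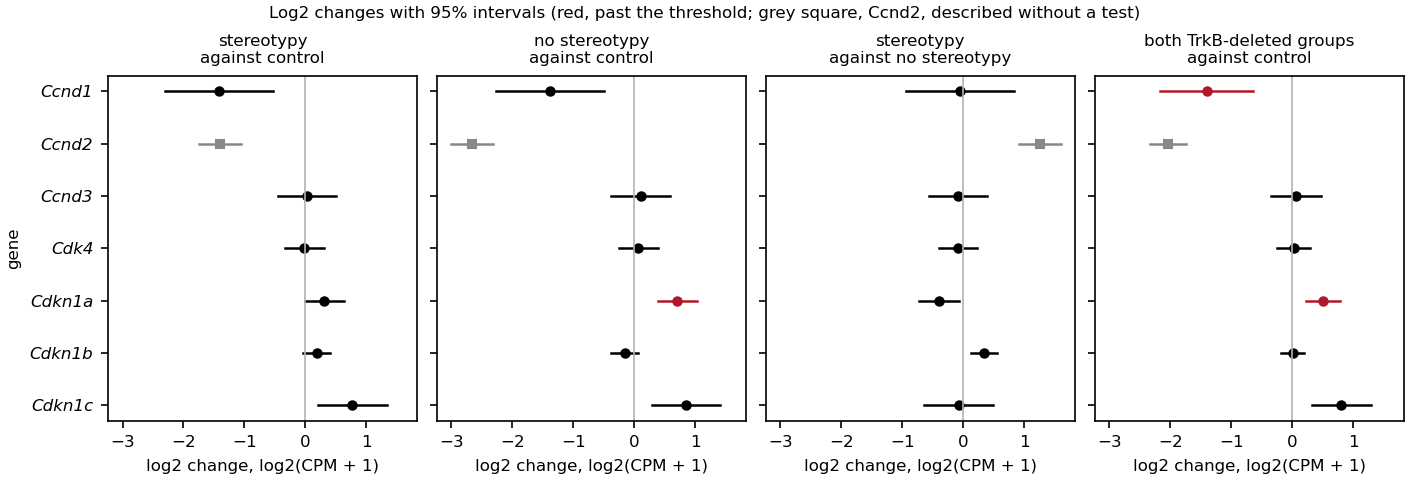
Log2 differences (log2(CPM + 1) scale, points) with 95% intervals (lines) of the 7 genes that passed the filter, in the 4 contrasts. Red marks a call, namely Cdkn1a without stereotypy against control (0.71) and Ccnd1 (-1.40) and Cdkn1a (0.51) for both deleted groups; the grey square is Ccnd2, shown without a test.

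Other genes of the cycle were taken from 7 lists of 74 genes around the D-type cyclins, of which 55 were tested. In stereotypy against control 0 rose and 1 fell, which is 1.82% of the 55 beside 5.10% of all genes, with a median log2 difference of 0.02 beside 0.05 over all genes tested. In no stereotypy against control 0 rose and 3 fell (5.45% beside 6.77%; median -0.10, beside 0.03). Both deleted groups against control had 0 higher and 2 lower (3.64% beside 5.72%; median -0.03, beside 0.04). Stereotypy against no stereotypy had 11 higher and 2 lower (median 0.13, beside 0.02), which is 23.6% of the 55 beside 10.2% of all genes.

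Downstream of the D-type cyclins, 9 of 13 retinoblastoma and E2F genes were tested. E2f1, an activator of S phase genes, was at 18.4, 21.5 and 18.7 CPM in the controls, 11.96, 9.16 and 6.38 CPM with stereotypy and 15.2, 14.0 and 22.0 CPM without it. All stereotypy libraries lay below all others. E2f1 fell with stereotypy against control by 1.05 (log2, SE 0.21, adjusted p = 0.0248, limma), a call lost without control library 2 (-0.98, adjusted p = 0.0545), stereotypy library 2 (-1.06, adjusted p = 0.0865) or stereotypy library 3 (-0.83, adjusted p = 0.0692). Over the alternatives adjusted p ran from 6.19e-05 to 0.177. The highest came with the glial and vascular covariate, where the difference was -1.45.

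E2f3, another activator E2F, followed the order of Ccnd2 in its group means (35.1, 26.5 and 22.1 CPM in control, stereotypy and no stereotypy). Its control libraries were at 35.9, 31.7 and 37.7 CPM, above those with stereotypy (23.2, 24.8 and 31.6 CPM) and without it (21.1, 21.6 and 23.6 CPM). Without stereotypy E2f3 fell by 0.64 (SE 0.13, adjusted p = 0.0153, limma), lost when control library 1 or no stereotypy library 1 or 2 was left out (adjusted p = 0.0555, 0.0715 and 0.0593). For both deleted groups it fell by 0.52 (adjusted p = 0.0229, range 0.000572 to 0.303). Rb1, the substrate of the cyclin D kinases, was at 6.14 to 13.4 CPM in all and passed the threshold in no contrast. Tfdp2, an E2F partner, was the most abundant of the list (mean 38.8 CPM).

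Of the G1 to S cyclins next in the sequence, Ccne1 and Ccne2 went opposite ways between the deleted groups. Ccne1 was at 4.73, 5.56 and 3.87 CPM with stereotypy and at 8.995, 8.32 and 8.90 CPM without it, and Ccne2 was at 6.16, 5.95 and 6.20 CPM against 3.05, 2.97 and 4.31 CPM. The groups did not overlap for either gene. The log2 differences were -0.78 (SE 0.16, adjusted p = 0.0246) and 0.69 (SE 0.15, adjusted p = 0.0258, limma). In the same contrast E2f1 (-0.84) was lower and Tfdp2 (0.40) and the cyclin D1 kinase Gsk3b (0.44) were higher.

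Genes of cyclins and kinases that act in transcription or in resting cells made up 8 of the 13 list calls between the deleted groups. All 8 were higher with stereotypy, which is 38.1% of the 21 tested, beside 6.61% of all genes called higher and 3.6% called lower. These were the transcription kinases Cdk12 (0.62) and Cdk13 (0.55), the neuronal kinase Cdk17 (0.46), the P-TEFb cyclins Ccnt1 (0.37) and Ccnt2 (0.49), the splicing-linked cyclins Ccnl1 (0.61) and Ccnl2 (0.58), and Ccng2 (0.45), an unconventional cyclin of resting cells. All 13 calls of the 7 lists in this contrast were lost, and 0 remained, without stereotypy library 2 or 3 or no stereotypy library 1 or 2, where over all genes 1, 0, 0 and 0 calls were made in place of 1398. With the marker covariate for other neurons the count was also 0, although several differences were then larger (Cdk12 0.79, Cdk13 0.64, Ccnt1 0.46) and others smaller (Cdk17 0.31, Ccng2 0.36, Ccnl1 0.54). Drd1 was higher in the same contrast (841 to 955 CPM against 515 to 655 CPM) and the cortical marker Slc17a7 lower (117 to 209 CPM against 475 to 1140 CPM), and the part of these shifts in the 13 calls was not tested.

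Against control, Ccny, a membrane-tethered cyclin, fell without stereotypy by 0.42 (log2, SE 0.09, adjusted p = 0.0234) and Ccng2 by 0.44 (SE 0.10, adjusted p = 0.0264, limma). For both deleted groups Ccny fell by 0.32 (SE 0.08, adjusted p = 0.0469). This last call was lost in 11 of 21 alternatives (adjusted p 0.00726 to 0.477), among them leaving out any 1 control (0.0886 to 0.117), stereotypy library 1 or 2 (0.0818 and 0.107) or any 1 library without stereotypy (0.0597 to 0.103). The Ccny call without stereotypy was lost without control library 1 or 3 or no stereotypy library 1 or 2 (adjusted p 0.0533 to 0.0924), and that of Ccng2 without control library 1 or any 1 library of the group without stereotypy (0.0572 to 0.0939). Cdk5r1, the p35 activator of the neuronal kinase CDK5, was the most abundant gene of its list, at 652 to 747 CPM with no call.

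**Figure D5:**
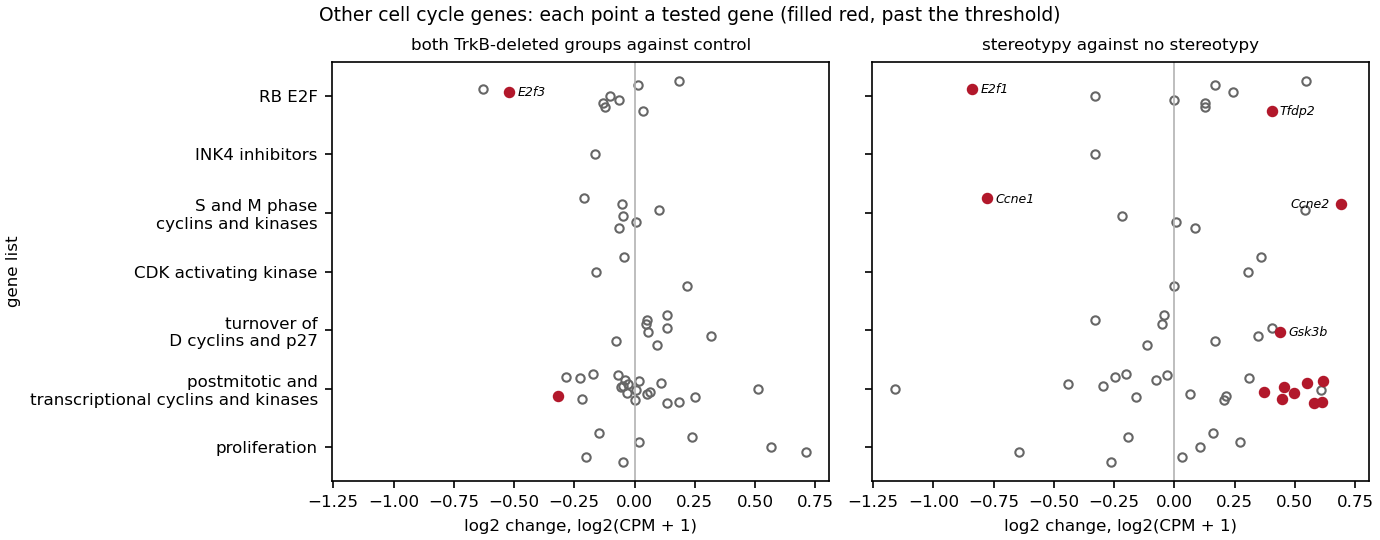
Log2 difference (log2(CPM + 1) scale) of each of the 55 tested genes, by list, for both deleted groups against control (left) and for stereotypy against no stereotypy (right); filled red points passed the threshold. On the left E2f3 and, unlabelled in the sixth row, Ccny are called; on the right 11 genes are higher and 2 lower, and the 8 unlabelled red points in the sixth row are Cdk12, Cdk13, Cdk17, Ccnt1, Ccnt2, Ccng2, Ccnl1 and Ccnl2.

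Genes of dividing cells were low. The S and M phase genes Cdk1 (0 to 0.161 CPM), Ccnb1 (0 to 0.185 CPM) and Cdk2 (0.0274 to 0.553 CPM) did not pass the filter, nor did the proliferation markers Mki67 (0.112 to 1.25 CPM) and Top2a (0.0566 to 1.18 CPM). Mki67 was at 0.192, 0.368 and 0.491 CPM in controls, 0.716, 1.25 and 1.25 CPM with stereotypy and 0.620, 0.112 and 0.616 CPM without it. Its stereotypy libraries (20 to 39 reads) lay above all controls (7 to 16 reads), as did those of Birc5, Cdk1 and Ccnb1. The latter pair had at most 6 reads in a library. With stereotypy, Top2a, Ccnb2 and Cdk2 overlapped the controls, and the means of Aurkb and Ccna1 were 77.5% and 21.8% of control. All were picked after their values were seen, and the share of all genes without overlap was not computed, so nothing is read from them. These genes were not tested. Of 12 proliferation genes 7 were tested. Limma and edgeR called 0 of them in any of the 4 contrasts, with at most 2 under an unadjusted 0.05, and DESeq2 called Mcm5 or Mcm6 in each contrast against control. Limma called 5.10% to 10.2% of all genes in these contrasts, so nothing is read from 0 calls among 7 genes. DESeq2 called 9.68% to 11.1% of all genes in the contrasts against control, so nothing is read from its calls either. Pcna, which also serves DNA repair, was the most abundant of them at 14.6 to 21.6 CPM. Neural progenitor and neuroblast markers, 8 genes, summed to 45.0 to 58.2 CPM in controls, 71.1 to 90.5 CPM with stereotypy and 64.4 to 78.7 CPM without it. Sox11, the most abundant of them, was at 24.6, 20.1 and 22.5 CPM in controls, 43.0, 49.8 and 39.3 CPM with stereotypy and 32.0, 32.3 and 28.2 CPM without it. By this sum and by Sox11, both deleted groups lay above the controls. Sox11 made up a large part of the sum, so these are not separate readings. The share of all genes without overlap was not computed, so nothing is read from this order. With stereotypy against control, Sox11 alone of the 7 tested markers was called (log2 difference 0.94, limma). Sox2 (0.51), Nes (0.68), Dcx (0.31) and Cd24a (0.27) were also higher, and Dlx1 (-0.29) and Dlx2 (-0.56) were lower. Dlx2 was at 2.72, 4.66 and 2.18 CPM with stereotypy, below each control (4.70 to 5.12 CPM). The part of these shifts in the results was not tested.

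Of the INK4 inhibitors, which block CDK4 and CDK6 only, Cdkn2d (p19) alone passed the filter. It was at 75.0, 92.4 and 63.0 CPM in controls, 67.1, 60.4 and 54.0 CPM with stereotypy and 79.5, 75.8 and 72.8 CPM without it. No contrast called it, and the difference with stereotypy against control was -0.33 (adjusted p = 0.167, limma). Cdkn2a, Cdkn2b and Cdkn2c were under 0.322 CPM in every library. Among genes that turn over D-type cyclins and p27, Ddb1 was the most abundant (317 to 397 CPM), and Ambra1 and Fbxo31, which direct the degradation of D-type cyclins, passed the threshold in no contrast. Skp2, which directs that of p27, was at 1.26 to 1.73 CPM in controls, 2.35 to 2.65 CPM with stereotypy and 1.68 to 1.88 CPM without it, and its difference with stereotypy was 0.49 (adjusted p = 0.0796).

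The genes most like Ccnd2 across the 9 libraries were found by Pearson correlation of log2 levels over 9683 protein coding genes with a mean of at least 5 CPM. The points fall into 3 groups that share the deletion, so r is a description with no test. The 6 highest were Ubl3 (0.984), Slc1a1 (0.972), Pou3f1 (0.972), Pld5 (0.972), Cdc42ep3 (0.968) and Nckap1 (0.965). Pou3f1, a POU domain transcription factor, had the widest range, with 197 ± 13.3 CPM in controls, 55.8 ± 11.0 CPM with stereotypy and 33.6 ± 5.83 CPM without it (SD, n = 3). Slc1a1, a neuronal glutamate transporter, stood at 165 ± 4.5, 133 ± 12.1 and 113 ± 2.05 CPM. The lowest were Fez1 (-0.983), Nsf (-0.98) and Pxylp1 (-0.976).

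Among the genes of the list, r with Ccnd2 was 0.687 for Ccnd1, 0.393 for Cdkn1b, -0.212 for Cdk4, -0.262 for Ccnd3, -0.735 for Cdkn1c and -0.87 for Cdkn1a. Cdkn1a was thus the member furthest opposite to Ccnd2. Ntrk2 itself reached 0.949, rank 28 of the genes compared.

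Shared sequence could mix the counts of close relatives. Of 51219 words of 50 bases in the transcripts of the 8 genes, 0 occurred in 2 of them, and 1.52% of the Ccnd3 words also occur in the pseudogene Ccnd3-ps. The antisense genes that overlap Ccnd2 were at most 0.411 CPM (Gm43126) and 2.30 CPM (9330179D12Rik), far below the level of Ccnd2 in any library. Gm44732, which overlaps 30.7% of the Cdkn1c exon bases from the opposite strand, had at most 2 reads in a library.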

How the data were processed

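The authors deposited 1 table per library of CPM for 47729 Ensembl identifiers. The submitters' processing notes name TopHat and the build GRCm38. How reads were counted, with which annotation and with what use of strand, is not given in the sources used here. All values above 0 were whole multiples of 1 read within 0.1 reads (100%), so reads were recovered for the count tools. GENCODE M21 (GRCm38), whose release may differ from the authors', matched 47310 identifiers (99.12%) and gave positions and exon lengths (all annotated exons of a gene merged).

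The fit took genes that reached 1 CPM in 3 or more libraries, on log2(CPM + 1), a scale that understates change at low levels, with limma 3.58.1 (R 4.3.3), a variance trend and a mean for each of 3 groups over all 9 libraries. The Benjamini-Hochberg method adjusted p-values over all genes fitted (threshold 0.05). The members, gene lists and tests were chosen with earlier results of these data known. By the naming rule, all 8 members, the called genes of each cycle list (at most 4 by size) with its most abundant gene, Ntrk2, and the 6 genes most and 3 least like Ccnd2 are described; further list members are named after their values were seen. Alternatives were edgeR 4.0.16 (quasi-likelihood) and DESeq2 1.42.0 on recovered reads, pseudocounts 0.25 and 4, other filters, rescaling, array weights, a replicate block, marker covariates and left-out libraries. The fits were tested on simulated counts.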

Additional observations from a re-analysis of the deposited data

How the results depend on the processing

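Over 603 log2 differences of the members under the alternatives, 502 were unchanged, 23 lost a call, 29 gained one and 49 turned sign. All of the last kind were differences without a call, and the causes were not tested. For the tested members, unchanged means the same direction and side of the threshold. The 603 include Ccnd2, with 21 or 22 alternatives per contrast, all unchanged. Ccnd2 had no test and was scored only by direction and by a shift smaller than its SD within groups. Called members (Ccnd2 aside) numbered 0 with stereotypy against control, against 2 in DESeq2, 1 with array weights, 1 with the other-neuron covariate and 0 to 1 without 1 library. Without stereotypy against control there was 1, against 3 in DESeq2, 2 with array weights, 2 with either marker covariate and 0 to 2 without 1 library. Between the deleted groups there were 0, against 1 in DESeq2, 2 with array weights, 1 at a mean of at least 5 CPM, 1 with only the groups compared and 0 to 1 without 1 library. For both deleted groups there were 2, against 3 in DESeq2, 0 with no filter, 0 with the glial covariate, 1 without both libraries 3 and 0 to 1 without 1 library. Against control, the DESeq2 counts and some counts without 1 library include Cdkn1c. With stereotypy, the call with the other-neuron covariate is Cdkn1c. This gene passed the filter only through the deleted groups and so had to lie above control, so nothing is read from its calls. Among the cycle lists, 1 call with stereotypy became 3 in edgeR, after rescaling and with array weights, 5 in DESeq2, 2 with the other-neuron covariate, 0 with no filter or the glial covariate and 0 to 2 without 1 library. The 3 without stereotypy became 6 in DESeq2, 10 with array weights, 1 with the glial covariate and 0 to 3 without 1 library. The 13 between the deleted groups became 29 with array weights, 6 with no filter, 1 with the glial and 0 with the other-neuron covariate, and 0 to 18 without 1 library. The 2 for both deleted groups became 5 in DESeq2, 4 with array weights, 0 with no filter or the glial covariate, 1 without both libraries 3 and 0 to 3 without 1 library. Over all genes tested, the main fit made 699, 927, 1398 and 784 calls in the order of the contrasts above. The first ranged from 11 (glial covariate) to 1522 (DESeq2), and the second from 316 (without no stereotypy library 1) to 1873 (array weights). The third ranged from 0 (without stereotypy library 3) to 4698 (array weights), and the last from 67 (glial covariate) to 1326 (DESeq2). Calls over all genes thus moved between settings too, and nothing is read from the counts of members or lists.

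With stereotypy against control, Ccnd3 turned to -0.079 in edgeR, -0.078 in DESeq2, -0.026 after rescaling and -0.097 with the glial covariate (-0.23 to 0.24 without 1 library), Cdk4 to 0.016 with array weights and 0.060 with the glial covariate (-0.12 to 0.092 without 1 library), and Cdkn1c to -0.15 with the glial covariate. Without stereotypy, leaving out 1 library gave -0.15 to 0.32 for Ccnd3 and -0.017 to 0.19 for Cdk4. Between the deleted groups, Ccnd1 turned to 0.33 with array weights, 0.99 with the other-neuron covariate and 0.37 without both libraries 3 (-0.31 to 0.37 without 1 library), and Cdkn1c to 0.15, 0.48 and 0.075 (-0.28 to 0.081). Ccnd3 ranged from -0.19 to 0.021 and Cdk4 from -0.20 to 0.024 there without 1 library. For both deleted groups, Ccnd3 gave -0.029 in edgeR, -0.026 in DESeq2 and -0.012 with the glial covariate (-0.19 to 0.28 without 1 library). Cdk4 gave -0.0175 in edgeR, -0.015 in DESeq2, -0.017 after rescaling and -0.00094 with the other-neuron covariate (-0.045 to 0.11 without 1 library). Cdkn1b gave -0.035 in edgeR, -0.032 in DESeq2, -0.031 after rescaling, -0.017 with array weights, -0.098 with the glial covariate and -0.016 without both libraries 3 (-0.031 to 0.072 without 1 library).

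With the replicate block, Ccnd1 also passed the threshold in each deleted group against control (-1.42, adjusted p = 0.0489, and -1.38, adjusted p = 0.0478, limma), giving 1 and 2 called members. Libraries share only a number: deviations of same-numbered libraries correlated from -0.0798 to 0.406, and not every library correlated best with its own number.

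The higher and lower calls over all genes were 490 and 209 (limma) against 321 and 322 (edgeR) with stereotypy and 515 and 412 against 411 and 493 without it. They were 503 and 281 against 340 and 389 for both, and 905 and 493 against 778 and 557 between the deleted groups. In DESeq2 they were 719 and 803, 725 and 784, 653 and 673, and 1251 and 1092 in the same order. Rescaling moved the median of all genes by -0.05 to -0.02. Depth limited Cdk6 and Cdkn1c, with at most 34 and 85 reads in a library.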
